A study of Mus musculus with 8 samples.

Results

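The fibrillar collagen chains are the subunits of the collagens that assemble into the banded fibrils of connective tissue. The 10 chains described here were chosen by name from a list of this gene family: Col1a1, Col1a2, Col2a1, Col3a1, Col5a1, Col5a2, Col5a3, Col11a1, Col24a1 and Col27a1. Each was measured by 1 row of the array, and all 10 were among the 17221 genes tested. Expression was measured in fibroblasts sorted from the colon of wild-type C57BL/6J mice, all gated as Epcam-, CD45-, CD31- and gp38+. They were split by the surface protein CD90, coded by Thy1, into a CD90-negative population (samples 13, 15, 17 and 19) and a CD90-positive one (samples 14, 16, 18 and 20). The cells came from 4 mice, the labels name no age and no treatment, and no label ties a sample to a mouse. The p-values therefore describe the spread among these 8 samples, which may be technical. The comparison asks how expression differs between the CD90-positive and CD90-negative fibroblasts.

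Collagen chains are made as procollagens in the endoplasmic reticulum, where hydroxylases modify them and chaperones help them wind into a helix. After export, proteases remove the propeptides, the molecules pack into fibrils, and lysyl oxidases cross-link them. Type I collagen, built of Col1a1 and Col1a2 chains, is the main fibril collagen of most connective tissues, and type III, built of Col3a1 alone, accompanies it in the gut wall and vessels. Type V chains are minor partners that start fibrils and limit their width. Types II and XI belong mainly to cartilage, and types XXIV and XXVII are minor collagens known from the skeleton.

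Values are log2 expression as deposited, differences are CD90-positive minus CD90-negative, and errors are SD over 4 samples. The highest value was 19.85, more than the 16 bits of a scanner give, so folds hold for the deposited scale and are no ratios of RNA amounts. The array's negative control rows had a median of 6.82 ± 0.022 in CD90-negative samples and 6.64 ± 0.044 in CD90-positive samples. A transcript below them may still be present, but the size of a difference is then inexact. Thy1 ranged from 5.46 to 5.57 in CD90-negative samples and from 7.03 to 8.11 in CD90-positive samples. Fibroblast genes were bright in both populations: Dpt, coding for dermatopontin, was at 18.9 ± 0.088 and 19.21 ± 0.025, and Dcn, coding for decorin, at 17.95 ± 0.26 and 18.7 ± 0.074. Samples 13 and 14 stood apart from the rest by Xist, at 16.16 and 16.27 against at most 9.32. For Uty they were at 5.49 and 5.56 against at least 9.65 in the rest. Without them Col24a1 differed by -1.87, Col1a2 by -0.77 and Col27a1 by -0.58 (limma adjusted p = 3.79e-05, 0.000265 and 0.000908), and the other chains were not called.

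None of the fibrillar collagen chains was higher in the CD90-positive population, and 3 of 10 were lower: Col24a1, Col1a2 and Col27a1 (limma adjusted p under 0.05). Among all genes tested 29.7% were called in either direction and 15.7% were called lower, so the share of chains called was near that of the array as a whole. These 3 chains were also the ones without overlap between the populations, as was the case for 32.3% of all genes tested. The median difference of the 10 chains was -0.16, against -0.014 over all genes tested, and 8 of the 10 differences were below 0, as were 52.2% of all differences. The median size of the difference, without its sign, was 0.16 for the chains and 0.18 for all genes tested. These arrays measure pools of cells, so fewer cells that carry a transcript and less of it per cell cannot be told apart.

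**Figure D1:**
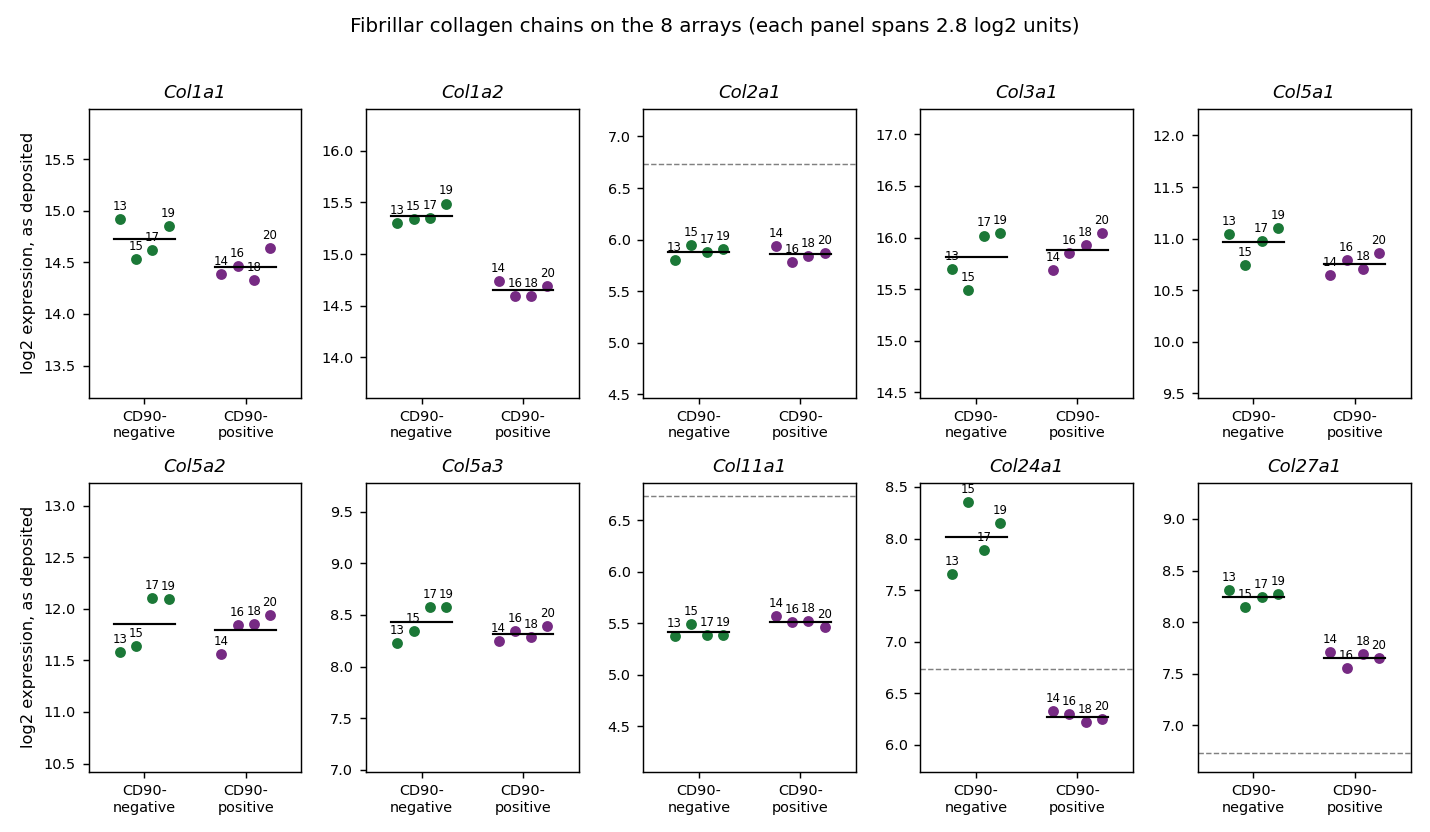
Log2 expression of the 10 chains on each of the 8 arrays. Points are samples with their title numbers, black bars are means of 4, the dashed line is the mean of the negative control medians, and every panel spans the same height. Col24a1, Col1a2 and Col27a1 show no overlap between the populations, while Col3a1 lies between 15.49 and 16.04 in both.

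Col24a1, the chain of type XXIV collagen, was the most different of the family. It was at 7.66, 8.35, 7.89 and 8.15 in CD90-negative samples 13, 15, 17 and 19, and at 6.33, 6.3, 6.22 and 6.25 in CD90-positive samples 14, 16, 18 and 20. Every CD90-positive sample was lower than every CD90-negative one, and the 4 CD90-positive values spread far less (SD 0.051 against 0.3). All 4 lay below the negative control rows of their arrays, so this small spread cannot be read as a trait of the population. The difference was -1.74 ± 0.14 (SE), a 3.33-fold lower value on this scale, with a 95% interval of -2.05 to -1.43 (limma adjusted p = 2.80e-05). Its size lay above that of 96.9% of all genes tested. The CD90-positive mean of 6.27 was below the negative control rows, so presence there cannot be told, and the size of this difference is inexact. Sample 13 was the lowest CD90-negative sample, and without it the difference was -1.85 (limma adjusted p = 1.31e-05; over all alternatives the adjusted p ran from 1.62e-06 to 0.000366).

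Col1a2, the second chain of type I collagen, was bright in both populations and lower in the CD90-positive one. Its CD90-negative values were 15.3, 15.34, 15.35 and 15.49 in samples 13, 15, 17 and 19. Its CD90-positive values were 14.74, 14.59, 14.59 and 14.69 in samples 14, 16, 18 and 20. Every CD90-positive value lay below every CD90-negative one, and the ranges within the populations were 0.19 and 0.16. The fitted difference was -0.72 ± 0.069 (SE; 95% interval -0.88 to -0.56; limma adjusted p = 8.96e-05), or 1.65-fold lower on this scale.

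Col27a1, the chain of type XXVII collagen, was a dim transcript above the negative control rows in both populations. It was at 8.31, 8.15, 8.24 and 8.27 in CD90-negative samples 13, 15, 17 and 19 and at 7.71, 7.56, 7.69 and 7.65 in CD90-positive samples 14, 16, 18 and 20. All 4 CD90-positive samples lay below all CD90-negative samples. The difference was -0.59 ± 0.065 (SE; 95% interval -0.74 to -0.44; limma adjusted p = 0.000197). The genes most like Col27a1 over the 8 samples, by the mean absolute difference between profiles centred on their own means, were Alg3 (0.036), Hsd17b12 (0.039) and Gm17138 (0.043). For Col24a1 they were Fat4 (0.076), Mtss2 (0.1) and Gm20467 (0.1). Both chains were picked as called, and their profiles hold mostly the step between the populations. Genes with a like difference are therefore bound to be nearest. These differences were -0.6, -0.53 and -0.52 for the genes like Col27a1 and -1.77, -1.79 and -1.54 for those like Col24a1. A likeness beyond that step was not tested.

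The sequences around the starts of Col24a1 and Col1a2, which were lower, and of Col3a1, which was not called, are shown for comparison (RefSeq, build GRCm38.p6, plus strand, 250 bases before to 10 bases after the annotated start, 5′ to 3′). Capitals mark matches, on either strand, to the CCAAT box (CCAAT), the GC box (GGGCGG), the TATA box (TATAAA), the cAMP response element (TGACGTCA) and the AP-1 site (TGANTCA). No matches overlapped. The windows were chr3:145292222-145292481, chr6:4505368-4505627 and chr1:45311288-45311547.
Col24a1: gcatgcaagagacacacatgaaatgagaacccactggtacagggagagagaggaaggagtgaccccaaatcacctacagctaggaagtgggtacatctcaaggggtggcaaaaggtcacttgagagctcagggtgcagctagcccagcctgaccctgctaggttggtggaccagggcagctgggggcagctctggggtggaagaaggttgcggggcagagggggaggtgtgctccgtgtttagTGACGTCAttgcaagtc
Col1a2: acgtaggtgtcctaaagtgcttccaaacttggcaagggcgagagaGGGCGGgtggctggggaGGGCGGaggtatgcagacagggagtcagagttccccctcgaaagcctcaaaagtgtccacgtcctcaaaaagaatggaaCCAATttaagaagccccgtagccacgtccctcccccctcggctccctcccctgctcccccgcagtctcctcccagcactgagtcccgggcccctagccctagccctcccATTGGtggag
Col3a1: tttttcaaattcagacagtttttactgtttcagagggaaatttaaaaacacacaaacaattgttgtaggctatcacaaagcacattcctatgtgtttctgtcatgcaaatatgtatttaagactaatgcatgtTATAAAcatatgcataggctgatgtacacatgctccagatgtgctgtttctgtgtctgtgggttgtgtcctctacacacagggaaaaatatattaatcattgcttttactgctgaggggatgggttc
Col24a1 held the cAMP response element, 7 bases before the annotated start, and no other of these motifs. Of 32851 windows of this length in the promoter table, 1.67% held that element. Col1a2 held 2 CCAAT boxes, one 109 bases before the start and one at it, and 2 GC boxes, motifs held by 34.6% and 33.4% of windows. Col3a1 held a TATA box 117 bases before the start, as 12.7% of windows did, and 36.2% of its bases were G or C, against 61.5% in Col1a2 and 57.3% in Col24a1. The AP-1 site, held by 7.03% of windows, matched none of the 7 chains with an entry. Of the other 4 chains with an entry, Col27a1 held 1 GC box, Col5a1 2, Col5a3 3 and 1 CCAAT box, and Col11a1 2 and 1 CCAAT box. For these 4, unlike the chains shown, the start used was not the first base of the gene in RefSeq's annotation. A match is a description of letters and not a measured binding site.

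Col1a1, the other chain of type I collagen, was not called lower. It was at 14.92, 14.53, 14.62 and 14.85 in CD90-negative samples 13, 15, 17 and 19 and at 14.39, 14.46, 14.33 and 14.64 in CD90-positive samples 14, 16, 18 and 20. Sample 20 reached into the CD90-negative range, where samples 15 and 17 were the lower ones. The difference was -0.27 ± 0.11 (SE; 95% interval -0.52 to -0.03; limma adjusted p = 0.0859). Without sample 15 it was -0.34 and called (limma adjusted p = 0.0482, the lowest of a range up to 0.37 over the alternatives). Col5a1 followed in the same fit, at -0.29 (limma adjusted p = 0.0281), so that 5 chains in place of 3 were called lower without sample 15.

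**Figure D2:**
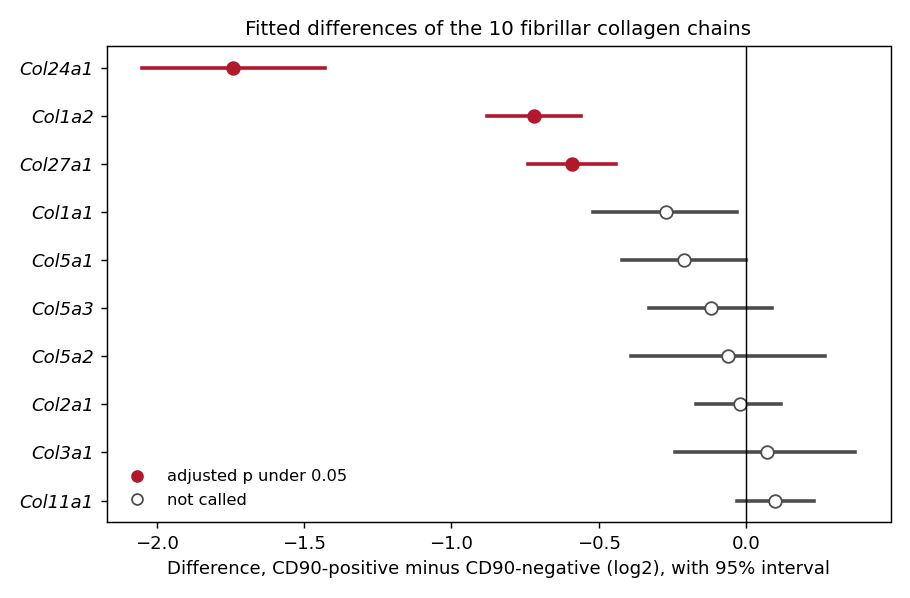
Fitted difference of each chain, CD90-positive minus CD90-negative in log2, with its 95% interval from limma. Filled points had an adjusted p under 0.05. Only the intervals of Col24a1, Col1a2 and Col27a1 lie wholly under -0.4, and the 7 open points lie between -0.27 and 0.1.

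Whether the chains that share a molecule or a fibril changed alike was asked from the difference between 2 chains on the same array. Only the change of this difference between the populations was read, and not its level. For Col1a1 minus Col1a2 the difference was -0.39, -0.81, -0.73 and -0.65 in CD90-negative samples 13, 15, 17 and 19. In CD90-positive samples 14, 16, 18 and 20 it was -0.35, -0.14, -0.26 and -0.05. The populations did not overlap, but sample 13 lay close to sample 14. The change was 0.44 (two-sided exact permutation test, p = 0.0286, adjusted p = 0.171 over 6 pairs), and it was 0.58 without samples 13 and 14. With this number of samples no smaller unadjusted p is possible, and the adjusted p also depends on the other pairs. As none of those was separated, the adjusted p of this pair could not fall under 0.05. That the change missed the correction therefore says nothing about its size.

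The values of the other 5 pairs overlapped between the populations. Col1a1 minus Col3a1 changed by -0.34 (exact permutation p = 0.0571, adjusted p = 0.171) and Col5a1 minus Col11a1 by -0.31 (exact permutation p = 0.0857, adjusted p = 0.171). Col1a1 minus Col5a1 was nearly the same in both populations, at 3.77 ± 0.098 and 3.7 ± 0.07. Within type V, Col5a1 minus Col5a2 changed by -0.15 and Col5a1 minus Col5a3 by -0.09, with adjusted exact permutation p of 0.411 and 0.543. In the CD90-negative population, sample 13 held the highest value for Col5a1 minus Col5a2, at -0.54 against -0.91 or lower, and for Col5a1 minus Col5a3, at 2.8 against 2.51 or lower.

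**Figure D3:**
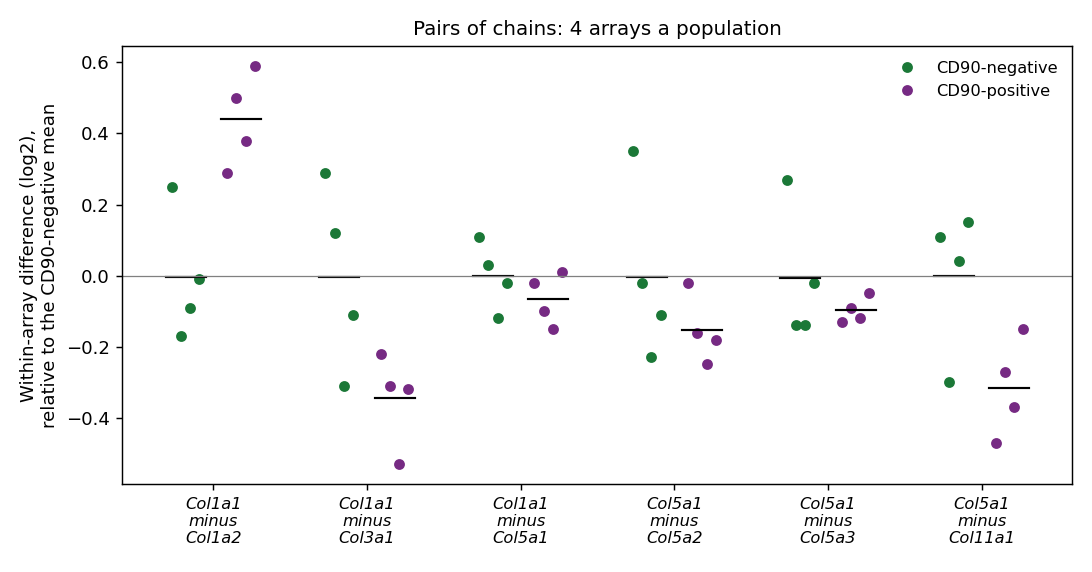
Difference between 2 chains on the same array, in log2, relative to the mean of the CD90-negative samples for that pair. Points are the 4 samples of each population and black bars their means. Col1a1 minus Col1a2 is the pair without overlap, with a change of 0.44.

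Col3a1, the chain of type III collagen, was among the brightest rows and not different. It was at 15.7, 15.49, 16.02 and 16.04 in CD90-negative samples 13, 15, 17 and 19 and at 15.69, 15.85, 15.93 and 16.04 in CD90-positive samples 14, 16, 18 and 20. The ranges covered each other, and samples 13 and 15 were the low ones of their population. The difference was 0.07 ± 0.13 (SE; 95% interval -0.24 to 0.37; limma adjusted p = 0.755), so a fall as large as that of Col1a2 lay outside the interval. In RefSeq's annotation Col5a2 is the next coding gene after Col3a1. Both were lower in all of samples 13 to 16 than in all of samples 17 to 20, which held for 1.89% of all genes tested. The sets were noticed after the values were seen, and for Col5a2 the nearest values of the sets were 11.84 and 11.85.

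The type V chains were not called. Col5a1, present in nearly every type V molecule, was at 11.04, 10.74, 10.98 and 11.1 in CD90-negative samples 13, 15, 17 and 19 and at 10.65, 10.79, 10.71 and 10.86 in CD90-positive samples 14, 16, 18 and 20. Only sample 15 lay within the CD90-positive range. Its difference was -0.21 ± 0.092 (SE; limma adjusted p = 0.119), and the call also appeared with array weights (-0.23, limma adjusted p = 0.0475; range over the alternatives 0.0281 to 0.313). Col5a2 was at 11.58, 11.64, 12.1 and 12.09 against 11.56, 11.84, 11.85 and 11.94 in the same orders of samples. Its populations overlapped, with a difference of -0.06 (95% interval -0.39 to 0.27; limma adjusted p = 0.807). Col5a3, a chain of a less common form of type V, was dimmer, at 8.44 ± 0.18 and 8.32 ± 0.058 (difference -0.12, 95% interval -0.33 to 0.09, limma adjusted p = 0.384).

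The cartilage chains lay below the negative control rows in every sample. Col2a1, the chain of type II collagen, was between 5.8 and 5.95 in CD90-negative samples and between 5.78 and 5.94 in CD90-positive samples (difference -0.02, 95% interval -0.17 to 0.12, limma adjusted p = 0.805). Col11a1, a chain of type XI, was between 5.38 and 5.49 and between 5.46 and 5.57 (difference 0.1, 95% interval -0.03 to 0.23, limma adjusted p = 0.213). At this brightness presence cannot be told, and the size of a difference is inexact. Of 10 chondrocyte marker genes, 9 stayed under the negative controls in each population, Acan, Matn1 and Col10a1 included. The exception was Sox9, a transcription factor of cartilage and other tissues, at 7.32 ± 0.24 and 8.28 ± 0.032 (limma adjusted p = 0.000274).

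Genes that handle collagen moved in both directions while the chains fell or were not called. Of 84 tested genes in 8 lists by role, 32 were higher and 19 lower, so that 60.7% were called. Among all genes tested 29.7% were called, 14.0% higher and 15.7% lower. All genes tested include dim ones, as the filter level of 5.36 lay under the negative control rows. The shares were not compared at equal brightness. The median difference of the listed genes was 0.08. The lists were drawn up for known roles in collagen, and many members act on other matrix proteins too. Of 16 tested genes for procollagen folding and hydroxylation, 4 rose and 2 fell (37.5% called). P3h2, a prolyl 3-hydroxylase, fell from 12.16 ± 0.25 to 10.4 ± 0.24 and Plod1, a lysyl hydroxylase, from 12.26 ± 0.088 to 11.21 ± 0.14 (limma adjusted p = 5.17e-05 and 3.47e-05). P4ha3, a prolyl 4-hydroxylase subunit, was called higher at levels below the negative control rows, 5.02 ± 0.1 and 5.91 ± 0.17. The bright members Plod2 and P4hb were at 14.47 ± 0.28 and 14.38 ± 0.16, and at 13.93 ± 0.093 and 14.11 ± 0.12 (limma adjusted p = 0.679 and 0.109).

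Of 9 tested genes for procollagen export, 1 rose and 3 fell (44.4% called). Sec24d, a coat subunit of transport vesicles, fell by 0.53, Creb3l2, a transcription factor of the secretory pathway, fell by 0.29, and Sar1a, a coat GTPase, rose by 0.37. Of 7 tested genes for propeptide removal, 3 rose and 2 fell (71.4% called). Bmp1, the main C-propeptidase, rose from 10.95 ± 0.1 to 11.9 ± 0.16, while its enhancer Pcolce fell by 0.28. Tll2, a relative of Bmp1, was called lower below the negative control rows, at 6.05 ± 0.27 and 5.04 ± 0.038. After another quantile normalization Creb3l2, Sar1a and Pcolce were not called (limma adjusted p = 0.0666, 0.121 and 0.108, the highest over their alternatives, with lowest values of 0.00157, 0.00109 and 0.00141).

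All 5 tested cross-linking genes were called, 3 higher and 2 lower. Lox rose from 7.22 ± 0.11 to 8.16 ± 0.15 and Loxl1 by 2.21, both copper enzymes that oxidise lysines, while their relative Loxl4 fell by 1.73. Tgm2, a transglutaminase, fell by 0.46. Its call was lost without sample 16, 17, 19 or 20 and after another quantile normalization, with adjusted p from 0.000834 to 0.0564 over the alternatives. Of 15 tested fibril-associated genes, 6 rose and 4 fell (66.7% called). Col14a1, a collagen that binds the surface of fibrils, was at 12.75, 9.73, 10.37 and 10.56 in CD90-negative samples 13, 15, 17 and 19 and between 15.27 and 15.58 in the CD90-positive samples. Sample 13 stood above the other CD90-negative samples, and the difference of 4.6 was 5.23 without it. Tnxb, a tenascin of collagenous tissue, rose from 14.61 ± 0.6 to 17.04 ± 0.14, and Prelp, a leucine-rich repeat proteoglycan, fell from 15.6 ± 0.28 to 14.48 ± 0.17.

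Of 7 tested collagen receptor genes, 3 rose and 3 fell (85.7% called). Ddr2, a receptor kinase for fibrillar collagen, rose from 14 ± 0.11 to 15.31 ± 0.13, and Mrc2, an endocytic collagen receptor, from 10.15 ± 0.29 to 11.41 ± 0.041. Itga2, an integrin chain for collagen, rose from 6.3 ± 0.41, below the negative control rows, to 9.11 ± 0.47, and its partner Itgb1 fell by 0.41. Of 9 tested genes for collagen degradation and its inhibitors, 5 rose and 2 fell (77.8% called). Fap, a surface protease, rose from 6.85 ± 0.65 to 9.73 ± 0.59 and Ctsk, a collagen-cleaving cathepsin, from 9.11 ± 0.17 to 10.26 ± 0.21. In CD90-negative samples 15, 17 and 19 Fap lay under the negative control rows, at 6.33, 6.8 and 6.49, so the size of its rise is inexact. Mmp2, a gelatinase, fell from 15.99 ± 0.03 to 15.13 ± 0.16, and its inhibitor Timp2 rose by 0.39. Itgb1 and Timp2 were not called after another quantile normalization (limma adjusted p = 0.162 and 0.171; lowest over the alternatives 0.000212 and 0.00115).

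Of 16 tested genes known to regulate collagen transcription, 7 rose and 1 fell (50% called). The ligand Tgfb3 rose from 10.12 ± 0.4 to 12.98 ± 0.19 and Tgfb2 from 10.25 ± 0.16 to 11.3 ± 0.14, while the receptor gene Tgfbr2 was at 13.28 ± 0.17 and 13.4 ± 0.17 (limma adjusted p = 0.446). Tcf21, a transcription factor of fibroblast lineages, rose from 13.52 ± 0.44 to 15.65 ± 0.24.

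**Figure D4:**
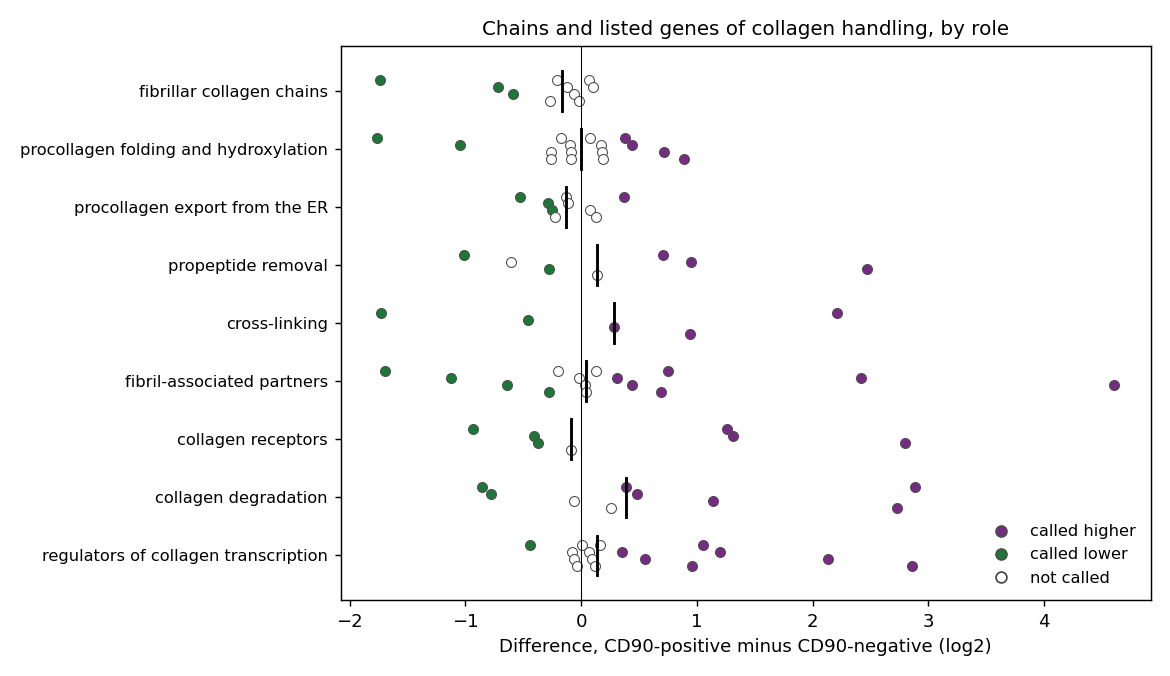
Fitted differences, CD90-positive minus CD90-negative in log2, of the 10 chains and of the tested genes of 8 role lists. Each point is a gene, filled where called, and black bars are list medians. The chains hold no point called higher. The 84 listed genes hold 32 called higher and 19 called lower, or 60.7%, against 29.7% of all genes tested.

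Some markers of other cell types differed between the populations and others did not, and their part in the collagen differences was not tested. Of 4 tested pericyte genes 3 were lower and 1 higher in the CD90-positive population, and the summed level of the list (log2) ran from 11.58 to 11.74 in CD90-negative samples and from 9.7 to 10.07 in CD90-positive samples. The brightest were Abcc9, at 11.1 ± 0.055 and 7.73 ± 0.8, and Cspg4, at 9.11 ± 0.24 and 7.58 ± 0.12. The 1 higher was Rgs5, at 7.19 ± 0.99 and 8.68 ± 0.31 (limma adjusted p = 0.0314), with overlap between the populations. Of 2 tested genes of interstitial cells of Cajal, the pacemaker cells of the gut, Ano1 was lower and Kit was not called, with summed levels of 9.89 to 12.02 and 7.59 to 8.69. Of 6 smooth muscle genes 4 were higher and 1 lower (11.73 to 12.46 and 11.87 to 13.49). Of those higher, Lmod1 was under the negative controls in each population, and Des and Cnn1 were in the CD90-negative one. All 4 glia genes were higher (7.49 to 7.59 and 8.16 to 8.81), with Gfap and Foxd3 under the negative controls in each population. S100b, at 5.71 ± 0.2 and 6.88 ± 0.32, and Sox10, at 5.64 ± 0.064 and 6.87 ± 0.29, were under them in the CD90-negative population.

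Of 5 tested genes of bone-forming cells, in which Col24a1 is known to be made, none was higher and 2 were lower, Alpl and Dmp1. Their summed level was 8.83 to 9.29 in CD90-negative samples and 8.72 to 9.11 in CD90-positive samples, and 5 of the 7 measured, Sp7, Ibsp and Dmp1 among them, were below the negative control rows in both. The 5 tested epithelial genes were not called (summed level 10.1 to 12.9 and 10.63 to 13.06), with Krt8 at 10.73 ± 1.3 and 11.05 ± 1.2. Leukocyte genes were higher in 3 of 4 tested (9.08 to 9.32 and 9.54 to 10.64). Of these 3, Cd3e and Cd79a were under the negative controls in each population, as was the untested Ptprc, and Cd68 was above them. Endothelial genes were higher in 1 of 4 tested (8.86 to 10.17 and 10.13 to 11.34), which was Tek, and the 4 others measured were under the negative controls. Of 3 tested mesothelial genes 1 was higher, Upk3b, at 5.24 ± 0.069 and 6.5 ± 0.28. It lay under the negative controls in each population, as did Wt1 and Msln. The summed level of this list was 8.41 to 10.92 and 9.18 to 11.15. Its brightest gene, Krt19, was not called, at 9.29 ± 1.2 and 9.54 ± 1.2. Like Krt8, it was highest in sample 13 of the CD90-negative and sample 20 of the CD90-positive samples. Of 9 fibroblast genes 5 were higher and 2 lower, and their summed level was 19.62 to 19.85 and 20.18 to 20.27. The 2 lower were the collagen chains Col6a1 and Col6a2, with differences of -1.14 and -1.08 (limma adjusted p = 4.58e-05 and 2.59e-05).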

How the data were processed

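The authors deposited log2 values, 1 per array row and sample, from 8 Affymetrix mouse transcriptome arrays. Per the labels' protocols, 2 ng of RNA was amplified and labelled, and RMA and Affymetrix Expression Console 1.1 are named per the submitters' processing notes. The array's genome build and the RMA settings are not given in the sources used here. Of 72688 rows 65956 were transcript clusters. The platform annotation, with symbols updated through RefSeq (GRCm38.p6), named 1 gene for 31258 of them, several for 1492 and none for 33206. A gene was represented by its row with the highest mean. Genes at or above 5.36, the 50th percentile over transcript clusters, on 4 or more of the 8 arrays were tested with limma 3.58.1 in R 4.3.3 (two-sided, Benjamini-Hochberg over 17221 genes, threshold 0.05, no block). All 10 chains were above 5.36 in all 8 samples. Pairs of chains were tested with SciPy 1.17.1 over the 70 assignments of the samples, taken as exchangeable. Named genes were all chains and, per role list, the 3 tested genes with the smallest p and the 2 with the highest mean. Cell type lists named up to 2 of their brightest genes, and their other named markers were chosen after their values were seen. Likeness was computed for the called chains with the highest and lowest difference. The chains, lists and tests were chosen with earlier results of these data known. The limma step was tested on simulated data. Alternatives changed the filter, normalization, variance model, array weights, choice of row, samples and terms for samples that stood together. The number of arrays limits the precision.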

Additional observations from a re-analysis of the deposited data

Results flagged for a closer look

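Among 96 groups of 4 samples, for the chains, the pairs of chains and the named genes, 4 held a sample far from the other 3, about the number of 1 in 20 that chance gives. Col11a1 was at 5.49 in CD90-negative sample 15 and at 5.39 or lower in the others, all below the negative control rows. In the CD90-positive population, sample 14 was the highest for Fap, at 10.6 against 9.52 or lower, and for Mmp2, at 15.37 against 15.07 or lower. In the CD90-negative population, sample 13 was the lowest for P3h2, at 11.79 against 12.25 or higher.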

How the results depend on the processing

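The calls and differences of genes were recomputed under 20 alternatives, of which a term for samples 13 to 16 and a block of consecutive sample numbers were chosen after seeing the data. Col24a1, Col1a2 and Col27a1 kept their direction and call in all of them, with differences from -1.87 to -1.63, -0.78 to -0.67 and -0.63 to -0.54. The number of chains called lower ran from 3 to 5 when 1 sample was left out, was 4 with array weights and 3 otherwise, and 0 chains were called higher by limma in any of them. Of 32 other genes, those named from the role lists, 26 kept direction and call and 6 lost a call under at least 1 alternative. The changes of the pairs of chains differed from the reported ones by less than 1 SD in each setting run for them, and their calls are no measure of stability, since the exact test could hardly pass. The labels pair no samples. Deviations from the population means of samples with consecutive numbers correlated at 0.288 to 0.451 over genes, but sample 19 matched sample 18 best, so any pairing is a hint from the data. With these numbers as a replicate block, 3 chains were called, the same ones, and all calls of genes named from the role lists were kept. Col1a1 was lower in the CD90-positive sample of all 4 couples (-0.52, -0.07, -0.3 and -0.21) and not called (-0.27, limma adjusted p = 0.056; 0.0482 to 0.37 over the alternatives). Rows below the negative controls limit what Col2a1 and Col11a1 can show.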

Other observations

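Samples 13 to 16 and samples 17 to 20 stood apart by Cwc22, a splicing factor gene, which reached at most 9.43 in the former and at least 13.47 in the latter. With a term for these sets, chosen after the values were seen, the difference between the populations was 0.07 for Col3a1 and -0.06 for Col5a2 (limma adjusted p = 0.587 and 0.683). The labels do not say what these samples share.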
